A study of Mus musculus with 8 samples.

Results

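Peptide hormone and neuropeptide precursor genes were examined in choroid plexus dissected from the fourth ventricle of mouse embryos of embryonic day 13. They comprised 9 precursor genes, namely Pmch, Penk, Adm, Nppc, Sst, Npy, Cck, Tac1 and Gal, together with Crhbp, which encodes a binding protein for a peptide rather than a peptide. Every probe set whose only gene symbol in the array annotation was 1 of these 10 was taken, which gave 12 probe sets out of 34945 with 1 gene, for 10 of 18193 genes. The genes were listed with their difference between the genotypes already known for this series. That difference is therefore given as a description. A member's pass in a fit, or its adjusted p, is not read as a test of it.

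The tested embryos carried the label Otx2 k.o. and came from an Otx2-deficient strain, and the sources used here do not give its promoter or Cre driver. The others were labelled wildtype and came from the same litters. All were on a mixed background, received no treatment and were of undetermined sex, with 4 arrays in each group, each a biological replicate per the labels. How many embryos went into an array is not stated. Values are log2 expression levels made by the authors with RMA, so 1 unit is a doubling, and array medians lay between 5.85 and 5.90. No detection calls were used, so a level at or under the array median cannot be told from background, and levels of different probe sets are not set against each other.

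Peptide precursors are long secretory proteins that prohormone convertases, carboxypeptidases and an amidating enzyme turn into short active peptides, which act on cell surface receptors, most of them coupled to G proteins. The choroid plexus is a secretory epithelium over a vascular stroma that makes cerebrospinal fluid, and peptides made there can be released into that fluid or act on the vessels beneath. Neurons are the classical source of somatostatin, neuropeptide Y, cholecystokinin, substance P and galanin, so these also serve as a check for neighbouring brain tissue.

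The probe set of Otx2 itself read 12.38, 12.46, 12.44 and 12.48 in the knockout-labelled arrays, against 12.00, 12.05, 11.97 and 11.85 in the wildtype arrays. It was thus higher, not lower, where the label says knockout, and the sources used here do not say whether its probes lie in the deleted part. Directions below rest on the labels, and the arrays are called knockout-labelled. Of the choroid plexus epithelial markers, Ttr read 14.17 ± 0.03 in knockout-labelled and 14.21 ± 0.04 in wildtype arrays (SD, n = 4 each), near the top of the scale, so this tissue was present in each group. It was the only one of 14 such markers that did not pass as lower. In bulk tissue, fewer cells of a type and less RNA per cell cannot be told apart.

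The bases before the transcription start are shown for Pmch and Crhbp (lower) and Adm (higher), which with Penk, for which no window was matched, had the largest differences, and for Nppc, whose window holds a bicoid-type motif. Each is the 250 bases upstream of a RefSeq start in build GRCm38.p6, 5′ to 3′ on the gene's strand. Capitals mark TAATCC, the core letters read by Otx2 and related homeodomain factors, or TATAAA, the TATA box letters, on either strand. Pmch lies at chr10:88090822-88091071 (plus strand), Crhbp at chr13:95444832-95445081 (minus), Adm at chr7:110627407-110627656 (plus) and Nppc at chr1:86670574-86670823 (minus).
Pmch: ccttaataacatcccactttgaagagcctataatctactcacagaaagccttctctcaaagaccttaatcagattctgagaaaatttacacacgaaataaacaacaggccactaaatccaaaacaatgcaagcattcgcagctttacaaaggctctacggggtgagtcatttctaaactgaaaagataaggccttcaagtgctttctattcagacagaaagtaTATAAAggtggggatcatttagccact
Crhbp: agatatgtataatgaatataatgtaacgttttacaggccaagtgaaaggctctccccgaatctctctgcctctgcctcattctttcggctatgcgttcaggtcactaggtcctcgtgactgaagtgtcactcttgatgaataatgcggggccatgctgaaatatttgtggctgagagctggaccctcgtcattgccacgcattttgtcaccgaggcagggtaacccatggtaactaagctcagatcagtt
Adm: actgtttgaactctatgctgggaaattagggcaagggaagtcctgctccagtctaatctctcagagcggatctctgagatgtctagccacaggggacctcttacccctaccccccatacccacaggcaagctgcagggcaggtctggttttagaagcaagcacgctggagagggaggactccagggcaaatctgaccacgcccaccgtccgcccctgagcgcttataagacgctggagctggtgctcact
Nppc: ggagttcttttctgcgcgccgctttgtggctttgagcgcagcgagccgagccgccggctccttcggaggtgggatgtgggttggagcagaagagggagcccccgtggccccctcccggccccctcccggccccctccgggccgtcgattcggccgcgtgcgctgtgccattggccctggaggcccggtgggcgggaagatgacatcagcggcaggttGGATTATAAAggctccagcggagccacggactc

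Promoter windows were available for 9 of the 10 genes, all but Penk, with 1 window each. TAATCC was found in 1 of these 9, Nppc, on the opposite strand 33 bases before the start, where it shares bases with the TATAAA 29 bases before the start. Of all 32851 windows of this length, TAATCC was held by 6.25%. The TATA letters TATAAA occurred in 2 of the 9, Nppc and Pmch, and in 12.4% of all windows, and in Pmch it stood 27 bases before the start. The full cAMP response element, TGACGTCA, a site known from the somatostatin gene, was found in 1 of the 9, Sst, 48 bases before the start, and in 1.55% of all windows. A match describes letters only, and a window without one says nothing on the factor. The Pmch and Crhbp windows had GC contents of 38.4% and 47.2%, against 56.8% for Adm and 69.2% for Nppc.

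Across the 10 genes the knockout-labelled arrays were lower for Pmch, Penk and Crhbp, higher for Adm and Cck, and mixed with wildtype for the other 5. In the limma fit over all genes 3 of the 10 passed an adjusted p under 0.05 as lower, where 11.7% of all 18193 genes did, and 2 passed as higher, where 7.84% did. The groups of arrays did not overlap for the same 3 and 2 genes, against 14.4% of all genes that lay wholly lower and 9.98% wholly higher. Because the list was drawn up with this contrast known, nothing is read from these shares. The median log2 difference was 0.06 over the 10 genes and 0.00 over all genes.

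**Figure D1:**
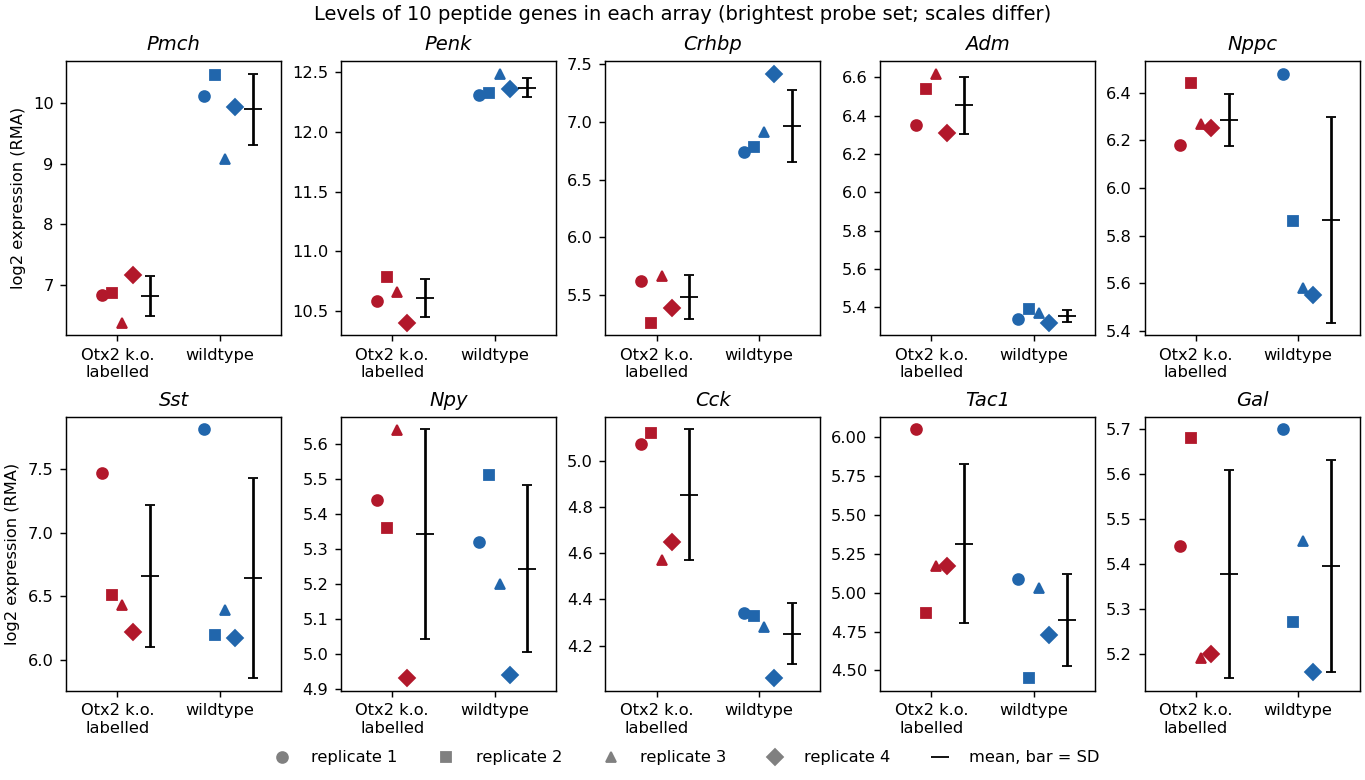
Log2 expression (RMA) of the brightest probe set of each of the 10 genes, with 1 point per array, the symbol giving the replicate number, red for knockout-labelled and blue for wildtype arrays, and the black mark giving the mean with its SD (n = 4). Axes differ between panels and do not start at 0. The groups are apart for Pmch, Penk, Crhbp, Adm and Cck, and Sst stands high in replicate 1 of each group.

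Pmch, the precursor of melanin-concentrating hormone, a hypothalamic peptide of feeding and arousal, read 6.84, 6.87, 6.38 and 7.17 in the knockout-labelled arrays, against 10.11, 10.46, 9.08 and 9.94 in the wildtype arrays. Every knockout-labelled array was below every wildtype array, and the lowest wildtype value, in replicate 3, was still above the highest knockout-labelled one, in replicate 4. The log2 difference was -3.08 with an SE of 0.27, or 8.48-fold lower. Between same-numbered arrays it was -3.27, -3.59, -2.70 and -2.77. The wildtype arrays spread over 1.38 log2 units, more than for any other of the 5 genes whose groups were apart. The knockout-labelled level was still above the array median.

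Penk, the precursor of the enkephalins, opioid peptides that also occur outside neurons, read 10.58, 10.78, 10.66 and 10.40 in the knockout-labelled arrays, against 12.31, 12.33, 12.49 and 12.36 in the wildtype arrays. The replicates lay close together, within 0.38 log2 units in the knockout-labelled and 0.18 in the wildtype group. The difference was -1.77 (SE 0.09), or 3.40-fold lower, and it ran from -1.55 to -1.96 between same-numbered arrays. Both groups were far above the array median, so the knockout-labelled tissue kept a clear Penk signal.

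Crhbp, whose secreted product binds corticotropin-releasing hormone and urocortin and keeps them from their receptors, read 5.62, 5.26, 5.66 and 5.39 in the knockout-labelled arrays, against 6.74, 6.78, 6.91 and 7.42 in the wildtype arrays. All knockout-labelled values were under the array median and all wildtype values above it. The difference was -1.48 (SE 0.15). Since the knockout-labelled level cannot be told from background, no fold is given. The widest gap between same-numbered arrays, -2.03, was that of replicate 4, where the wildtype value was highest.

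Adm, the precursor of adrenomedullin, a vasodilator peptide made by many stromal, epithelial and endothelial cells, was measured by 2 probe sets. The brighter read 6.35, 6.54, 6.62 and 6.31 in the knockout-labelled arrays, against 5.34, 5.39, 5.37 and 5.32 in the wildtype arrays. The second read 6.45, 6.11, 6.61 and 6.72 in the knockout-labelled arrays, against 5.09, 5.16, 5.00 and 5.36 in the wildtype arrays. On each probe set the groups were apart, with the wildtype arrays under the array median and the knockout-labelled ones above it. The differences were 1.10 (SE 0.08) and 1.32 (SE 0.13), against a wildtype level that cannot be told from background, so no fold is given. In the fit over all 34945 probe sets, where 6.08% passed as higher, each of the 2 did.

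Cck, the cholecystokinin precursor, a satiety and brain peptide, read 5.07, 5.12, 4.57 and 4.65 in the knockout-labelled arrays, against 4.34, 4.33, 4.28 and 4.06 in the wildtype arrays. The groups were apart by 0.23 log2 units at the closest values, and all 8 were under the array median, so neither group can be told from background. The difference was 0.60 (SE 0.13). Without both replicate 1 arrays it was 0.56 and no longer passed.

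Nppc, the precursor of C-type natriuretic peptide, a regulator of vessels and growing cartilage, read 6.18, 6.44, 6.27 and 6.25 in the knockout-labelled arrays, against 6.48, 5.86, 5.58 and 5.55 in the wildtype arrays. Wildtype replicate 1 was the highest of all 8, while the other 3 wildtype arrays were below every knockout-labelled one. Wildtype replicates 3 and 4 were under the array median and replicate 2 was at it, so these levels cannot be told from background. The difference over all arrays was 0.42 (SE 0.18), which did not pass (limma adjusted p = 0.156). Without wildtype replicate 1 it was 0.62 and passed (limma adjusted p = 0.00324). Of the 8 fits with 1 array left out, only this 1 changed the call. The difference between same-numbered arrays was -0.30 for replicate 1 and 0.58, 0.68 and 0.70 for replicates 2, 3 and 4.

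Sst, the somatostatin precursor, an inhibitory peptide of interneurons and endocrine cells, read 7.47, 6.51, 6.43 and 6.22 in the knockout-labelled arrays, against 7.81, 6.20, 6.39 and 6.17 in the wildtype arrays. Replicate 1 stood high in each group, and the other values of the groups overlapped. The difference was 0.01 with an SE of 0.39, the widest SE of the 12 probe sets. With an SE of that size even a difference well above the SE would not have passed, in either direction. For Tac1, below, a difference of 0.49 with an SE of 0.24 did not pass.

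Tac1, the precursor of substance P and neurokinin A, was on the brighter of its 2 probe sets also highest in replicate 1 of each group. This probe set read 6.05, 4.87, 5.17 and 5.17 in the knockout-labelled arrays, against 5.09, 4.45, 5.03 and 4.73 in the wildtype arrays. The groups overlapped, with a difference of 0.49 (SE 0.24) that did not pass, although each knockout-labelled array was above its same-numbered wildtype array. Blocked on the replicate number, it passed (limma adjusted p = 0.0430, against 0.204 without the block). Of the brighter probe set's values only that of knockout-labelled replicate 1 was above the array median, so the others cannot be told from background. The second probe set stayed between 3.26 and 3.54 in all 8 arrays, with a difference of 0.08 (SE 0.07). On it wildtype replicate 1 was the lowest array of its group and knockout-labelled replicate 3 the highest of its own.

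Npy, the precursor of neuropeptide Y, a feeding and sympathetic nerve peptide, read 5.44, 5.36, 5.64 and 4.93 in the knockout-labelled arrays, against 5.32, 5.51, 5.20 and 4.94 in the wildtype arrays. Gal, the galanin precursor, read 5.44, 5.68, 5.19 and 5.20 in the knockout-labelled arrays, against 5.70, 5.27, 5.45 and 5.16 in the wildtype arrays. For each gene the groups overlapped widely and all 8 values were under the array median. The differences were 0.10 (SE 0.16) for Npy and -0.02 (SE 0.14) for Gal.

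**Figure D2:**
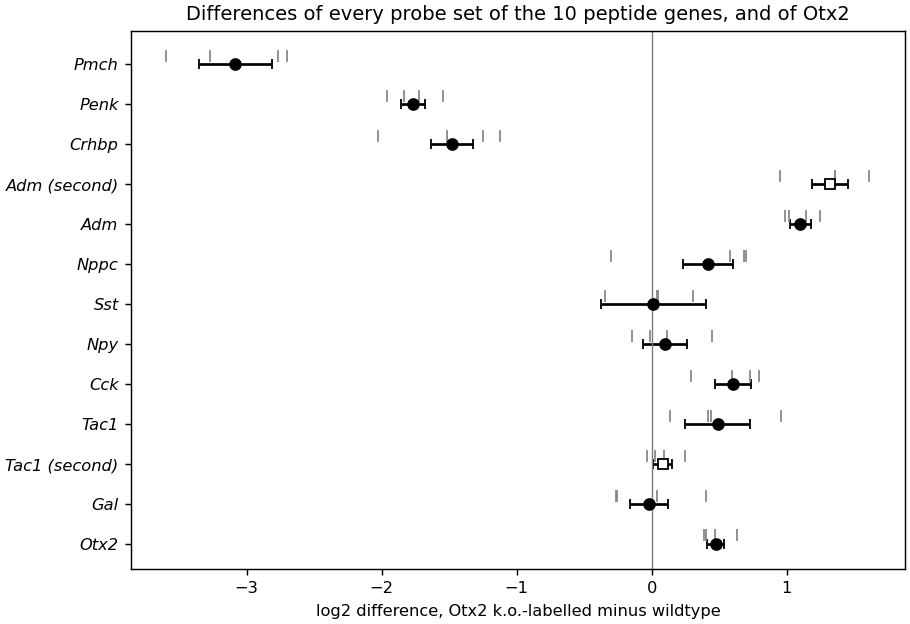
Log2 difference, knockout-labelled minus wildtype, of all 12 probe sets and of Otx2. Points give the estimate and bars its SE, open squares are the second probe sets of Adm and Tac1, and grey ticks are the differences between same-numbered arrays. All 4 ticks lie below 0 for Pmch, Penk and Crhbp and above 0 for Adm, Cck, the brighter Tac1 probe set and Otx2.

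Among the 5 genes that did not pass, each read from its brightest probe set, wildtype replicate 1 was the highest array of its group for 4, namely Nppc, Sst, Tac1 and Gal. Knockout-labelled replicate 1 was the highest of its group for 2 of the 5, Sst and Tac1. Neuron markers also differed between replicates more than between genotypes. The mean of 22 neuron marker genes was 7.65, 8.59, 7.18 and 7.61 in knockout-labelled replicates 1 to 4, against 8.27, 7.78, 7.03 and 6.70 in the wildtype replicates. The highest wildtype array for neuron markers was replicate 1, as it was for Sst, whereas the highest knockout-labelled array was replicate 2, where Sst read 6.51. Of the 22 markers 1 passed as higher, the GABA synthesis enzyme Gad1, 0 passed as lower in the limma fit, and the median difference was 0.30. The shares over all genes were 7.84% higher and 11.7% lower. The part of neuronal tissue in the levels of these peptides was not tested.

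The list means of choroid epithelium, stroma and mural cells, and macrophages moved with the genotype, with the groups of arrays apart. Of 14 choroid epithelium markers 13 passed as lower and 0 as higher, and the list's mean lay between 9.67 and 9.91 in knockout-labelled arrays, against 10.84 to 11.00 in wildtype arrays. The median difference of these markers was -1.06, and that of Col8a1 was -2.11, of Slc4a10 -1.63 and of Tmem72 -1.62, while Pmch, Penk and Crhbp differed by -3.08, -1.77 and -1.48. The mean of 15 stroma and mural markers lay between 10.12 and 10.41 in knockout-labelled arrays, against 9.88 to 9.94 in wildtype arrays, with 9 higher and 3 lower. The mean of 10 macrophage markers lay between 9.20 and 9.66, against 8.51 to 8.76 in wildtype arrays, with 8 higher and 0 lower. Of 10 endothelium markers 1 was higher and 3 were lower (median -0.10). Of 10 neural progenitor markers 3 were higher and 0 lower (median 0.34), and of 7 erythroid markers 0 were higher and 1 lower (median -0.10). For each of these lists the means of the groups overlapped. Over all genes 7.84% passed as higher and 11.7% as lower. The part of any of the listed cell types in the peptide differences was not tested.

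**Figure D3:**
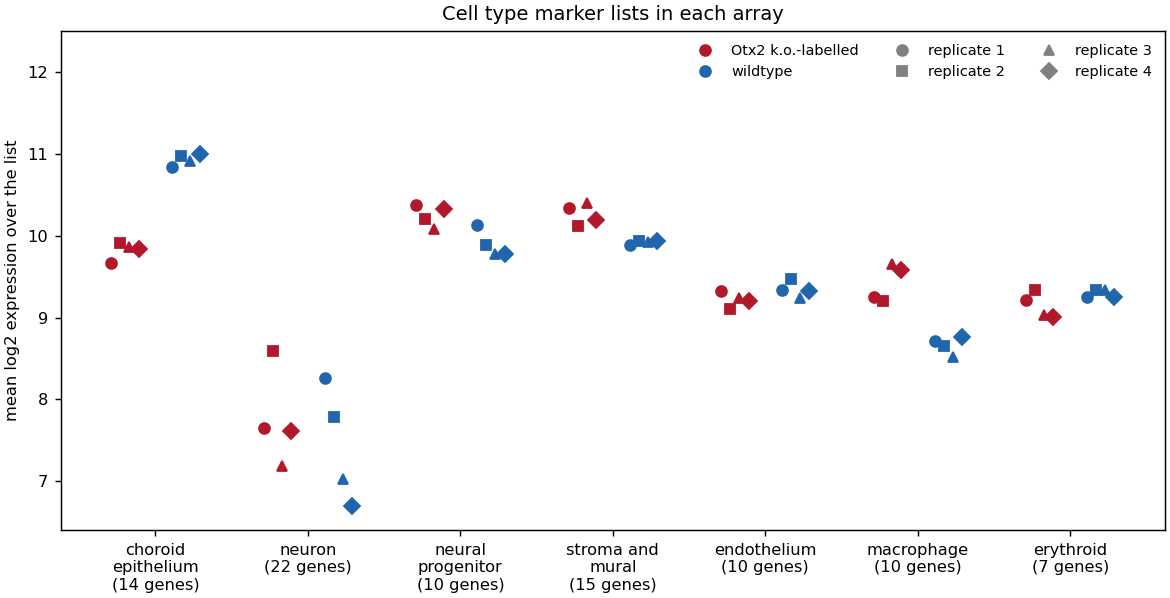
Mean log2 expression over each cell type marker list, with 1 point per array, red for knockout-labelled and blue for wildtype arrays, and the symbol giving the replicate number. The axis does not start at 0. The groups are apart for choroid epithelium (lower in knockout-labelled arrays), stroma and mural cells and macrophages (higher), while the neuron list spreads widely within each group.

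The genes whose profiles over the 8 arrays came nearest to the members' were found by the root mean square difference between gene-centred log2 values, which is 0 for identical profiles. It mostly reflects the genotype difference, and is a description. For Penk these were Snap91, a clathrin adaptor (0.121), Klk4, a kallikrein-related protease (0.128), and Tmem72 (0.151). For Crhbp they were Rilp, a Rab7 effector of lysosome transport (0.166), Steap1, a member of a metalloreductase family (0.199), and Tmem72 (0.200). Closest to Pmch were Myo5b, a vesicle motor (0.607), Col8a1, a short-chain collagen (0.609), and Myrip, a myosin and Rab linker (0.610). The measure is not scaled, so it grows with the size of a difference, and that of Pmch was the largest among the members. Myo5b, Col8a1 and Myrip differed by -2.24, -2.11 and -2.39, against -3.08 for Pmch. Tmem72, Steap1 and Col8a1 are in the list of choroid epithelium markers.

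Nearest to Adm were Tgfb3, a TGF-beta ligand (0.0754), Gas1, a hedgehog co-receptor (0.107), and the sphingosine phosphate receptor S1pr3 (0.120). Nearest to Cck were Zfp503, a zinc finger factor (0.120), Hmga2, an architectural chromatin protein (0.121), and Vash2, a tubulin carboxypeptidase (0.122). The likeness concerns differences between arrays, not levels.

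The receptors of these peptides were examined next, as a list of 32 genes of which 31 were measured. In this list 5 rose and 3 fell by the limma test adjusted over all genes, 23 did not pass, and the median difference was -0.03, against 7.84% higher, 11.7% lower and a median of 0.00 over all genes. Of 28 measured receptor and co-receptor genes of the 10 members, 4 rose and 3 fell. In either count the share that fell was near that of all genes, and the share that rose was above it. Of the 5 in the list that rose, 2, Ramp3 and Npr2, passed with the mean of probe sets. The list was chosen with earlier results of these data known, so nothing is read from these shares.

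For the 3 genes that were lower, no receptor passed. Mchr1, the mouse receptor of melanin-concentrating hormone, was at 5.81 ± 0.26 in knockout-labelled and 5.88 ± 0.06 in wildtype arrays (SD, n = 4 each), a difference of -0.07 (SE 0.12). The opioid receptors Oprm1, Oprd1 and Oprk1 differed by -0.04, -0.10 and -0.23, each with a level under the array median, and the opioid growth factor receptor Ogfr by 0.12. Of the corticotropin-releasing hormone receptors Crhr1 differed by 0.06 and Crhr2 by -0.34 (SE 0.12, limma adjusted p = 0.0691). Crhr2 passed with the replicate number as a block (adjusted p = 0.0322), without knockout-labelled replicate 3 (-0.41, adjusted p = 0.0438) and without wildtype replicate 1 (-0.44, adjusted p = 0.0130). Its second probe set gave -0.02, and both groups were under the array median. Of the ligands that Crhbp binds, chosen after their values were seen, Crh was at 2.97 ± 0.52 in knockout-labelled and 2.97 ± 0.20 in wildtype arrays, and Ucn differed by -0.21 (adjusted p = 0.169).

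Adrenomedullin acts on Calcrl, which needs a RAMP protein as partner. Calcrl read 9.26, 9.24, 9.21 and 9.13 in knockout-labelled arrays, against 9.77, 9.76, 9.66 and 9.53 in wildtype arrays. The groups were apart and it fell by 0.47 on the log2 scale (SE 0.07, limma adjusted p = 0.00134). Its 2 other probe sets gave differences of -0.16 and -0.13. Ramp3 read 7.42, 7.34, 7.33 and 7.66 in knockout-labelled arrays, against 6.81, 6.69, 6.80 and 6.78 in wildtype arrays, and rose by 0.67 (SE 0.08, adjusted p = 0.000438). Ramp2, the main partner in endothelium, was at 10.07 ± 0.14 in knockout-labelled and 9.98 ± 0.13 in wildtype arrays and did not pass. The ligand and Ramp3 were thus higher in the knockout-labelled arrays and the shared receptor lower.

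Ramp1, which makes Calcrl a receptor of the related peptide CGRP, also rose, by 0.41 (limma adjusted p = 0.0382), and is named after its value was seen. With 1 array left out at a time it kept the call in 2 of 8 fits, those omitting knockout-labelled replicate 1 or 2, and lost it in 6, with differences of 0.30 to 0.43 and adjusted p of 0.0603 to 0.0982. Without both replicate 1 arrays the Ramp1 call was lost as well (0.47, adjusted p = 0.0670). Its 2 other probe sets gave 0.10 and 0.21, and the average of all 3 did not pass (0.24, adjusted p = 0.0573).

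C-type natriuretic peptide signals through Npr2 and is removed by the clearance receptor Npr3. Npr2 read 8.38, 8.35, 8.63 and 8.43 in knockout-labelled arrays, against 8.10, 8.12, 8.06 and 7.95 in wildtype arrays, and rose by 0.39 (SE 0.08, limma adjusted p = 0.00648). Npr3 read 10.07, 10.36, 10.07 and 10.17 in knockout-labelled arrays, against 11.10, 11.14, 10.98 and 11.01 in wildtype arrays. It fell by 0.89 (SE 0.08, adjusted p = 7.00e-05), and its 2 other probe sets gave -1.08 and -0.97. The signalling receptor and the clearance receptor of the same peptide thus moved in opposite directions, each with groups apart.

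Tacr3, the receptor that prefers neurokinin B over the Tac1 products, had the largest difference in the receptor list. It read 7.22, 8.06, 7.19 and 7.12 in knockout-labelled arrays, against 8.72, 8.62, 8.85 and 8.92 in wildtype arrays. It fell by 1.38 (SE 0.19, limma adjusted p = 0.000862), with knockout-labelled replicate 2 nearest to wildtype. Of its 2 other probe sets 1 gave -1.68 and the other -0.08. Tacr1, the substance P receptor, differed by 0.12 and Tacr2 by 0.00.

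Sstr4, a somatostatin receptor, rose by 0.67 (SE 0.16, limma adjusted p = 0.0139), but its groups overlapped through wildtype replicate 2, and a second probe set gave -0.08. Its levels in wildtype replicates 1 and 3 were under the array median and that in replicate 4 was at it, so these cannot be told from background. The other somatostatin receptors, Sstr1, Sstr2, Sstr3 and Sstr5, did not pass. Npy1r, a neuropeptide Y receptor named after its value was seen, rose to 6.26 ± 0.36 in knockout-labelled arrays, against 5.59 ± 0.11 in wildtype arrays (difference 0.67, limma adjusted p = 0.0156). All Npy1r wildtype values and that of knockout-labelled replicate 2 were under the array median, so these cannot be told from background. The second Npy1r probe set gave -0.06. The call was lost without wildtype replicate 3 (0.61, adjusted p = 0.0512) and without both replicate 1 arrays (0.73, adjusted p = 0.0560). Averaged over their probe sets, neither Npy1r (0.30, just over the threshold) nor Sstr4 (0.30, limma adjusted p = 0.0748) passed. Cckar and Cckbr, the cholecystokinin receptors, differed by 0.06 and -0.04, and the galanin receptors Galr1 and Galr2 by -0.11 and -0.41, none of which passed.

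**Figure D4:**
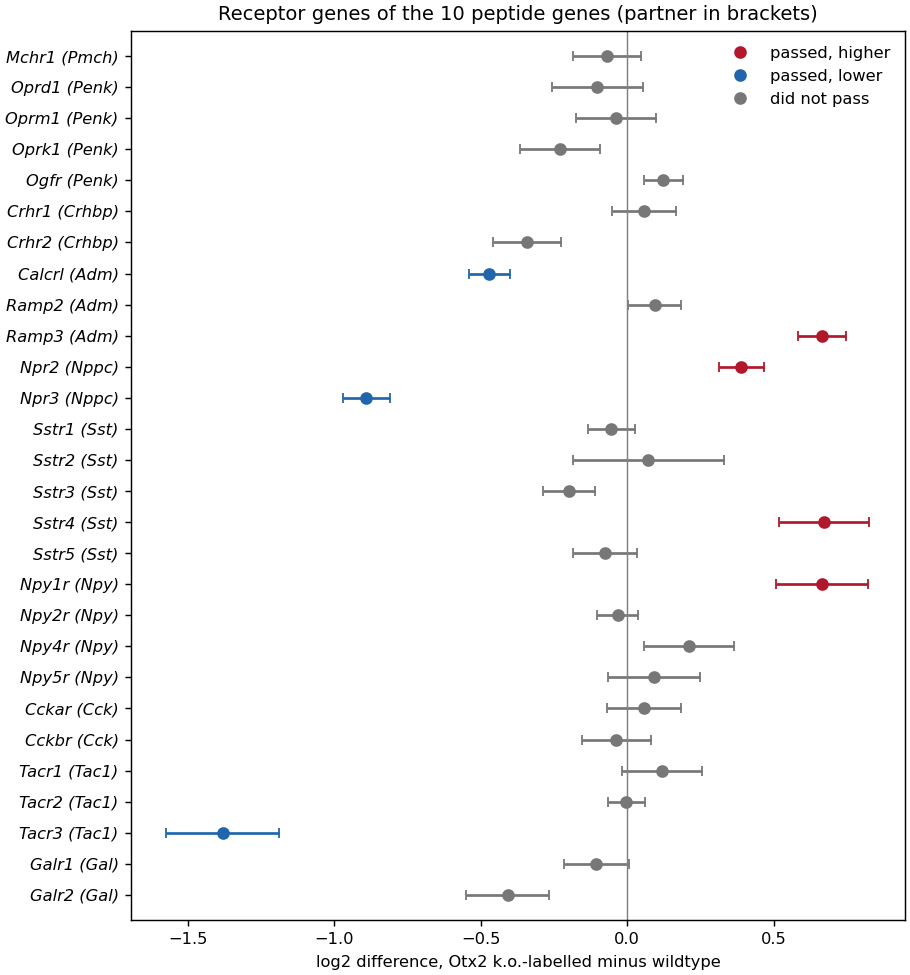
Log2 difference, knockout-labelled minus wildtype, of 28 receptor and co-receptor genes, grouped by the peptide gene in brackets, with SE bars from limma. Red points passed as higher, blue points as lower, and grey points did not pass. Calcrl, Npr3 and Tacr3 lie below 0 and Ramp3, Npr2, Sstr4 and Npy1r above it.

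The genes that make and store peptides followed. Of 24 measured genes for processing enzymes and secretory granule proteins, 2 rose and 2 fell, with a median of 0.03, where 7.84% of all genes passed as higher and 11.7% as lower. Cadps2, a priming factor of dense-core vesicle release, read 7.33, 7.77, 7.85 and 7.79 in knockout-labelled arrays, against 8.97, 8.81, 8.81 and 9.01 in wildtype arrays. It fell by 1.21 (SE 0.12, limma adjusted p = 9.81e-05). Pcsk1, a prohormone convertase of the regulated pathway, rose by 0.71 (SE 0.15, adjusted p = 0.00898), at 5.92 ± 0.34 in knockout-labelled and 5.21 ± 0.10 in wildtype arrays. All its wildtype values and those of knockout-labelled replicates 1 and 4 were under the array median, so these cannot be told from background. The carboxypeptidase Cpe and the convertase Furin, chosen after their values were seen, differed by 0.05 and -0.09 and did not pass. The amidating enzyme Pam, chosen likewise, was higher in 4 of 4 same-numbered pairs by 0.26 on average and just missed the threshold (limma adjusted p = 0.0503). It passed with the replicate number as a block, a trended prior, averaged probe sets, quantile normalization or dim genes left out. Pam has no other probe set, so its own values were the same in the averaged fit, and its groups overlapped.

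Pcsk5, another convertase, fell by 0.35 (limma adjusted p = 0.0214), and Corin, the convertase of atrial natriuretic peptide, rose by 0.40 (adjusted p = 0.0167). The 4 other Pcsk5 probe sets gave differences from -0.44 to 0.05. The Pcsk5 call was lost without knockout-labelled replicate 4 and without wildtype replicates 2, 3 or 4 (differences of -0.35 to -0.32, adjusted p of 0.0503 to 0.0640). The Corin call was lost without wildtype replicate 4 (0.38, adjusted p = 0.0514) and without both replicate 1 arrays (0.40, adjusted p = 0.0842).

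Of 17 measured genes for peptide-degrading enzymes 3 rose and 1 fell, with a median of 0.05, beside the same 7.84% higher and 11.7% lower over all genes. Mme, the neprilysin that cleaves enkephalins, substance P and natriuretic peptides, read 10.26, 10.15, 10.30 and 9.96 in knockout-labelled arrays, against 9.48, 9.50, 9.85 and 9.75 in wildtype arrays. It rose by 0.52 (SE 0.11, limma adjusted p = 0.00832), and a second probe set gave 0.31. Without both replicate 1 arrays it was 0.43 and did not pass (adjusted p = 0.0643).

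Anpep, the aminopeptidase N that also breaks down enkephalins, rose by 0.73 (limma adjusted p = 0.0276), Lta4h, a bifunctional aminopeptidase, rose by 0.21 (adjusted p = 0.0302), and Ace, the angiotensin-converting enzyme, fell by 0.30 (adjusted p = 0.0476). Anpep lost it without knockout-labelled replicate 4 or wildtype replicate 1, 3 or 4 (0.66 to 0.77, adjusted p of 0.0512 to 0.0793). Lta4h kept it only in the fit omitting knockout-labelled replicate 2 and lost it in the other 7 of 8 (0.18 to 0.22, adjusted p of 0.0526 to 0.0935). Ace kept it when knockout-labelled replicate 2 or wildtype replicate 4 was omitted and lost it in the other 6 (-0.33 to -0.23, adjusted p of 0.0557 to 0.126). Without both replicate 1 arrays Anpep, Lta4h and Ace all lost it (limma adjusted p = 0.0842, 0.112 and 0.162).

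Of 42 other measured peptide precursors 1 fell and 1 rose, with a median difference of -0.04, both below the shares over all genes (11.7% lower and 7.84% higher). Nmb, the neuromedin B precursor, read 6.91, 7.08, 6.91 and 6.96 in knockout-labelled arrays, against 7.63, 7.58, 7.63 and 7.78 in wildtype arrays, and fell by 0.69 (SE 0.07, limma adjusted p = 0.000127). Edn3, the endothelin 3 precursor, rose by 0.54 (adjusted p = 0.0335) with overlapping groups. The call was lost when any of knockout-labelled replicates 1, 2 and 3 or of wildtype replicates 1 and 4 was omitted (0.45 to 0.53, adjusted p of 0.0658 to 0.0909). Without both replicate 1 arrays it was lost as well (0.44, adjusted p = 0.175). The other 40 did not pass.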

How the data were processed

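Total RNA of the choroid plexus was labelled with biotin and measured on 1-colour arrays. Per the submitters' processing notes, the authors used RMA, and the deposited table holds its log2 level for every probe set. Software, version and array filters are not named in these sources. RMA brings the arrays' distributions together, so a change in total RNA cannot be seen, and it compresses differences of dim and bright probe sets. The number of arrays, 8, limits the precision.

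Probe sets were named through the platform annotation, leaving out 64 controls, 932 with several genes and 9160 with none listed. A gene was read from the probe set with the highest 8-array mean. The brightest one of Adm is of a type that can match other transcripts, as are, among others, those of Tacr3, Mchr1, Edn3 and Ttr. Groups were compared with limma 3.58.1 in R 4.3.3 (functions lmFit and eBayes; a two-sided test on genotype with no other term and dim genes kept) with Benjamini-Hochberg adjustment over 18193 genes, and SEs are the moderated ones. The procedure was tested on simulated data. The 10 members, the 4 pathway lists (127 entries, 114 measured) and the 7 marker lists were chosen with earlier results of these data known. Named were all members, the receptors of members that passed, up to 6 list genes that passed with the smallest p, the 3 nearest profiles of each member that passed, and Otx2.

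Across genes, same-numbered arrays deviated from their groups' means with correlations of 0.131, 0.232, 0.160 and 0.223, above the limit of 0.1, so the numbers were taken to pair the arrays, and a fit with the block stands beside the main one, which has genotype alone. Differently numbered arrays also reached 0.171 (knockout-labelled 4 with wildtype 1) and 0.294 (3 with 4). The pairing comes from the values, as no label says what a number marks.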

Additional observations from a re-analysis of the deposited data

Results flagged for a closer look

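Of the 2 groups on each of 13 probe sets (the 12 and that of Otx2), 26 in all, 1 held an array far from the rest by Dixon's test at the 95% level, and chance gives about 1 in 20. It was wildtype replicate 1 for Sst, at 7.81, with the next wildtype array at 6.39 and a gap of 0.867 of the group's range. Knockout-labelled replicate 1 was also the highest of its group for Sst, at 7.47, without passing that limit.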

How the results depend on the processing

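The fits were repeated with the replicate number as a block, array weights, a trended robust prior, the mean of probe sets, every probe set, dim genes left out, quantile normalization, arrays centred on their medians, a threshold of 0.01, and each array left out. A fit without both replicate 1 arrays was added after seeing the data. The members were listed with this contrast known and every fit reuses these arrays, so a repeated call of a member is not further support. The same 3 members, Pmch, Penk and Crhbp, passed as lower in every fit with 1 array or both replicate 1 arrays left out, with differences of -3.36 to -2.90, -1.82 to -1.70 and -1.60 to -1.33. The difference of each of the 10 members kept its direction and call, or was too small to be called in either, in 167 of 172 member and setting combinations. The exceptions are Nppc without wildtype replicate 1 (0.62) and without both replicate 1 arrays (0.66), Tac1 with the block (0.49), and Cck at a threshold of 0.01 (0.60) and without both replicate 1 arrays (0.56, adjusted p = 0.0568). The block changed no call of a member or receptor other than Tac1 and Crhr2. All genes that passed as higher numbered 1426, and 601 at a threshold of 0.01, and those lower 2131 and 1349. With arrays left out they ranged from 900 (without both replicate 1 arrays; 905 without wildtype replicate 3) to 1845, and from 1448 to 2089. Members that passed as higher, 2, numbered 0 among genes above the median level, where neither Adm nor Cck was tested, 1 at 0.01, and 2 to 3 with arrays left out. The 3 lower stayed at 3 with arrays left out, and numbered 2 above the median level, where Crhbp was not tested. Receptors that rose, 5, numbered 2 with the mean of probe sets, 1 among genes above the median level, 2 at 0.01 and 3 to 5 with arrays left out. Receptors that fell, 3, numbered 5 with quantile normalization and 3 to 5 with arrays left out. Processing genes that rose, 2, numbered 1 above the median level, 1 at 0.01 and 1 to 3 with arrays left out. The 1 above the median level was Pam, as neither Pcsk1 nor Corin was tested there. Those that fell, 2, numbered 1 at 0.01 and 1 to 3 with arrays left out. Degrading enzymes that rose, 3, numbered 1 at 0.01 and 0 to 4 with arrays left out. The 1 that fell was lost, leaving 0, with every probe set, with quantile normalization and at 0.01, and numbered 0 to 1 with arrays left out. The 1 other precursor that rose, Edn3, was lost, leaving 0, with array weights and at 0.01, and was not tested above the median level. With arrays left out those that rose numbered 0 to 1, and those that fell, 1, numbered 1 to 2. The causes were not tested, apart from the fewer genes tested among those above the median level and the fewer arrays where some were left out.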
